A study of Equus asinus with 6 samples.

Results

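Chemokines, interleukins and their receptors are the signalling proteins by which cells call in, hold and instruct leukocytes. In the longissimus dorsi, which runs along the spine, their transcripts were followed across 6 RNA-seq libraries of Guangling donkeys (Equus asinus), a Chinese breed, aged 24 months. Muscle labelled high in intramuscular fat (IMF), the fat stored between and within the muscle fibres, gave 3 libraries, and muscle labelled low in IMF gave the other 3. The labels give no treatment and no genotype for either group, and all 6 tissues were frozen in liquid nitrogen after slaughter. The labels state neither the fat content measured nor the sex of the animals. They list 6 samples without naming separate animals, and p-values therefore cover the spread among these 6 libraries, which may be technical. Genes entered by name alone: a row of the count table was a member where its gene name began with CCL, CXCL, CX3CL, CCR, CXCR, CX3CR, ACKR or IL followed by a digit. This gave 99 of the 20873 listed genes, 47 of them ligands (with the antagonist IL1RN) and 52 receptors or receptor subunits.

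Chemokines are small secreted proteins that form gradients and bind G protein-coupled receptors on leukocytes, while atypical chemokine receptors (ACKR) bind the same ligands without classical signalling and remove or move them. Interleukins act mainly through receptors that pair a ligand-specific chain with a shared chain, such as the common gamma chain or gp130, and signal through JAK kinases and STAT factors; the IL-1 and IL-17 families signal instead through adaptor proteins to NF-kB. In muscle and fat, these proteins come from resident macrophages and lymphocytes, vessel walls, stromal cells, adipocytes and the fibres themselves. In bulk tissue, fewer cells of a type and less RNA per cell cannot be told apart.

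The libraries held 39052998 to 47494157 assigned reads, and 75 to 86 of the 99 members had at least 1 read in a library. Among counts from 1 to 10, 65.6% to 67.6% were even, against 49.6% to 50.6% of counts above 100. Low IMF replicates 2 and 3 stood apart as the most alike pair of libraries. Their counts differed by 4.52 times sampling noise (median chi-square over genes), where the next closest pair, high IMF replicate 3 with low IMF replicate 2, differed by 26.9 times. The labels list them as separate samples and do not say whether they share an animal. They were kept as 2 libraries, and results were also computed with both summed. The defining muscle markers CKM, ACTA1, DES, TTN, MYLPF and TNNT3 were all read in every library.

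Most members were rare transcripts. Per gene length, 7 members averaged at least 10 FPKM over the 6 libraries, 24 averaged 1 to 10 FPKM and 68 averaged under 1 FPKM. IL32, an inflammatory cytokine best known from human cells, had the highest average level (84.2 FPKM). It was followed by the chemokine CCL14 (28.3 FPKM), by CXCL12 (19.8 FPKM), the stromal ligand of CXCR4, by CCL21 (16.3 FPKM), which guides CCR7-bearing cells along lymphatic vessels, and by the stromal chemokine CXCL14 (16.3 FPKM). ACKR3, a scavenger of CXCL12, averaged 12.7 FPKM and IL34, a ligand of the macrophage receptor CSF1R, 11.7 FPKM. By group, CCL14 averaged 26.3 ± 8.45 FPKM in high and 30.3 ± 12 FPKM in low IMF muscle (SD, n = 3 each), CXCL12 21.9 ± 12 FPKM in high and 17.7 ± 1.68 FPKM in low IMF muscle, and ACKR3 16.4 ± 1.23 FPKM in high and 8.94 ± 1.02 FPKM in low IMF muscle. The libraries of CCL14, CXCL12, CCL21 and CXCL14 overlapped in FPKM from each gene to the next in this order. ACKR3 was above IL34 in FPKM in each high IMF library, while both overlapped in low IMF muscle. A further row, LOC106844664, carries the name CCL14 in the RefSeq table, while its deposited description names C-C motif chemokine 15. It had 12 to 77 reads in each library. Which gene this row holds is uncertain, and reads of CCL14 may be split between copies.

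**Figure D1:**
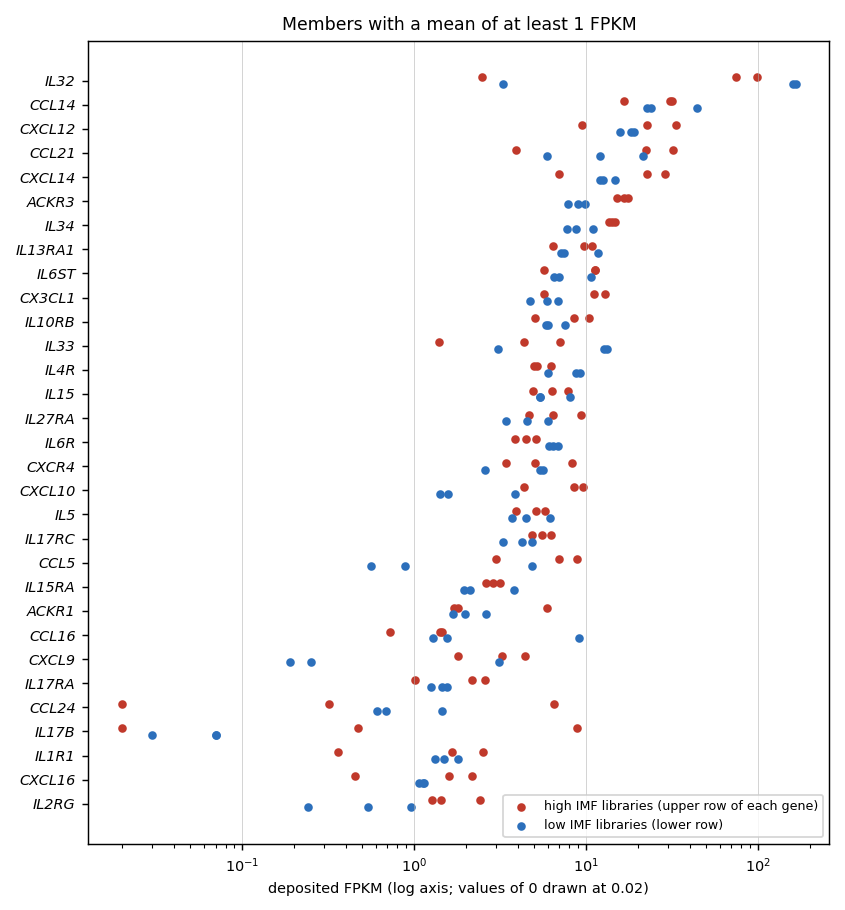
Deposited FPKM (log axis) of the 31 members with a mean of at least 1 FPKM, ordered by that mean, with 1 point per library; high IMF libraries are drawn above low IMF libraries for each gene. The points of ACKR3 and IL34 are tight and separate by group, whereas IL32 has 1 library of each group under 4 FPKM and the other libraries above 70 FPKM.

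At the other end stood several classical inflammatory and T helper cytokines, though not IL5, which averaged 4.87 FPKM. IL6 had 11, 6 and 6 reads in the high IMF libraries, against 0, 10 and 2 reads in the low IMF libraries. IL10, the anti-inflammatory cytokine, had 5, 4 and 0 reads in the high IMF libraries, against 2, 2 and 0 reads in the low IMF libraries, and the neutrophil chemokine CXCL8 had 2, 0 and 0 reads in the high IMF libraries, against 4, 0 and 0 reads in the low IMF libraries. IL1A, IL2 and IL4 had 1, 2 and 2 reads in all. A count of 0 allows up to 3 reads, or 0.0563 to 0.0869 CPM by library (counting error only, with reads taken as independent). CPM is the read count scaled to the library size after trimmed-mean (TMM) adjustment. Most low counts were even, so reads may not be independent there and this limit may be too low. Levels of these rare cytokines and any difference between the groups were thus at or near what this depth can detect. In all, 20 members had fewer than 20 reads over the 6 libraries, 5 had no read in high IMF muscle and 6 had none in low IMF muscle.

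High IMF muscle was compared with low IMF muscle to ask which transcripts differ with fat content. CXCL10, a T cell chemokine induced by interferon, ACKR3 and IL34 were higher in all 3 high IMF libraries than in any low one. In CPM, the receptor chains IL6R and IL4R were lower in all 3 high IMF libraries than in any low one. None of these differences passed the adjustment over all genes in edgeR. The low-count filter kept 63 of the 99 members and 15933 genes in all. Over the 63, edgeR's quasi-likelihood test called 0 higher (0% of all genes tested) and 0 lower (0% of all genes tested) at an adjusted p under 0.05. With limma-voom the number called was 0 as well. The smallest adjusted p of a member was 0.51. At an unadjusted p under 0.05, 11 members were higher in high IMF muscle, or 17.5%, where 4.53% of all genes were, and 2 were lower, or 3.17%, where 2.74% of all genes were. The 3 high IMF libraries lay above the 3 low IMF libraries for 10 of the 63 (15.9%; 6.86% of all genes tested) and below them for 2 (3.17%; 6.1% of all genes tested). The 10 were CXCL10, IL18, IL1B, IL1RN, IL17RC, ACKR3, CX3CR1, IL2RG, IL7 and IL34, and the 2 were IL6R and IL4R. These orders are in CPM. In FPKM, which carries no TMM factor, the groups of IL17RC and IL4R overlapped, and those of IL7 met at 0.19 FPKM. The DESeq2 Wald test called 2 members higher, CXCL10 and IL17B, of 70 with an adjusted p (2.86%; 0.68% of all genes) and 0 lower (0.477% of all genes), and at an unadjusted p under 0.05 it had 15 of 98 members higher (15.3%; 4.87% of all genes) and 4 lower (4.08%; 2.67% of all genes).

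These counts cover the members that passed the filter, and 7 of the 63 had fewer than 10 reads in at least 2 low IMF libraries, against 1 with as few in at least 2 high IMF libraries. Over all 99 members, without a filter, the mean CPM was higher in high IMF muscle for 68 (68.7%), where 52.9% of all listed genes were. The median log2 fold (high over low IMF) of the 63 was 0.36, against 0.01 for all genes tested, and 44 of them were positive (69.8%; 51.2% of all genes tested). Ligands and receptors had similar medians, 0.37 over 25 ligands tested and 0.29 over 38 receptors tested. Single libraries moved these values. Dropping high IMF replicate 2 gave a median of 0.24, and dropping high IMF replicate 3 gave 0.60. With high IMF replicate 1 left out the median was 0.02 and the number of members higher at an unadjusted p under 0.05 was 4. That number was 6 when high IMF replicate 2 was dropped, 3 when low IMF replicate 2 or low IMF replicate 3 was dropped, and 3 when those low IMF libraries were summed. Of the 13 members with an unadjusted p under 0.05, CXCL10, ACKR3 and IL6R kept one whichever library was left out, and the other 10 did not. The largest share of highest values lay in high IMF replicate 1, which held the top CPM for 26 of the 63 members (41.3%; 21.6% of all genes tested), while high IMF replicate 3 held it for 4 (6.35%; 22.3% of all genes tested) and had the lowest CPM for 20 (31.7%; 21.9% of all genes tested).

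**Figure D2:**
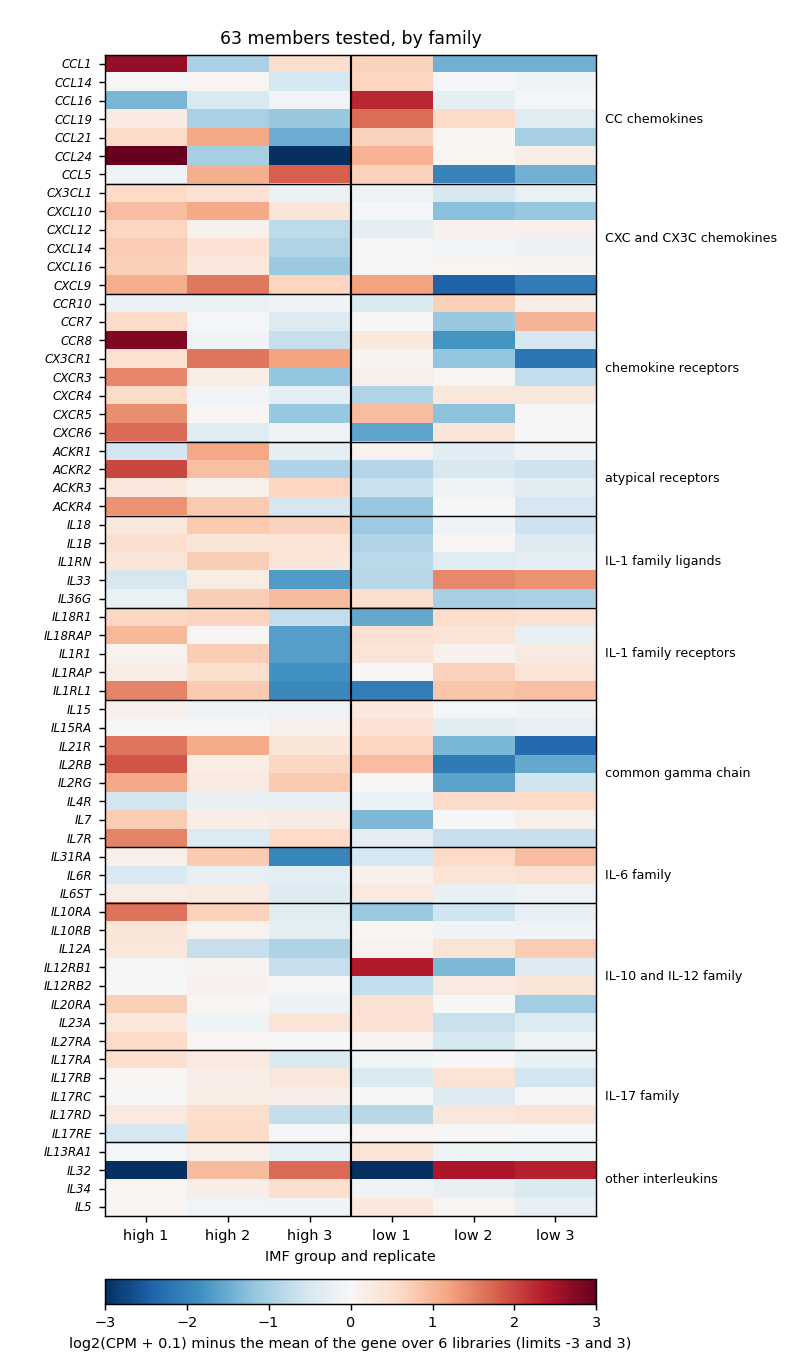
Level of the 63 members tested in each library (columns; high IMF replicates 1 to 3 left of the line, low IMF replicates 1 to 3 right of it), as log2(CPM + 0.1) minus the gene's mean, with members grouped by family. Red cells cluster in high IMF replicate 1, and IL1R1 and IL1RAP have their lowest value in high IMF replicate 3.

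Marker lists of cell types lay on both sides. Of 10 T cell markers, 8 were listed and all 8 had a positive log2 fold; their summed level was 16.7 to 37.1 CPM in high IMF muscle and 5.02 to 14.6 CPM in low IMF muscle, with ZAP70 and TRAT1 not among the listed names. Of 10 macrophage and monocyte markers listed, 9 were positive; the sum was 49.1 to 281 CPM in high IMF muscle and 62.4 to 63 CPM in low IMF muscle, with the top value in high IMF replicate 1. The 6 neutrophil markers summed to 5.2 to 7.97 CPM in high and 2.92 to 3.86 CPM in low IMF muscle, with no MPO read in any low IMF library. B and plasma cell markers, 3 positive and 2 negative of 5 tested, summed to 11.0 to 18.9 CPM in high and 7.2 to 12.1 CPM in low IMF muscle. The 6 fibroblast and progenitor markers, all positive, summed to 205 to 1162 CPM in high and 256 to 612 CPM in low IMF muscle. The 5 adipocyte markers, all with a positive log2 fold, summed to 29.4 to 374 CPM in high and 14.2 to 98 CPM in low IMF muscle, with the top value in high IMF replicate 2. Smooth muscle and pericyte markers, 3 of 4 with a negative log2 fold, summed to 433 to 629 CPM in high and 698 to 955 CPM in low IMF muscle, without overlap. Endothelial markers (5 of 6 negative) summed to 365 to 743 CPM in high and 705 to 813 CPM in low IMF muscle. Skeletal muscle markers (4 of 6 negative) summed to 76679 to 125385 CPM in high and 97378 to 138492 CPM in low IMF muscle. The part of these cell types in the results that follow was not tested.

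Among ligands of the receptor CXCR3, which marks activated T cells, CXCL10 showed the clearest separation. CXCL10 measured 8.26, 9.49 and 5.56 CPM in the high IMF libraries, against 4.19, 1.75 and 1.9 CPM in the low IMF libraries. The groups did not overlap, and low IMF replicate 1 lay nearest to the high IMF range. The fold was 2.97 (log2 1.57, approximate SE 0.41; edgeR unadjusted p = 0.00596, adjusted p = 0.522), and the log2 fold stayed at 1.35 to 2.08 when each library was left out, with an unadjusted p of at most 0.0258. In the DESeq2 Wald test its adjusted p was 0.0334, and in the authors' deposited table it was marked as up with an adjusted p of 0.0336. That DESeq2 call depended on the libraries used, in fits added after the data were seen. Dropping high IMF replicate 1 gave an adjusted p of 0.11 and dropping high IMF replicate 2 gave 0.274, while dropping high IMF replicate 3 gave 0.0101. For the low IMF libraries, dropping replicate 1 gave 4.31e-06, replicate 2 gave 0.316 and replicate 3 gave 0.329.

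CXCL9, the neighbour of CXCL10 in the donkey genome and also induced by interferon, measured 7.22, 10.1 and 5.3 CPM in the high IMF libraries, against 7.8, 0.533 and 0.705 CPM in the low IMF libraries. Low IMF replicate 1 lay within the high IMF range for this gene, while low IMF replicates 2 and 3 were under 1 CPM. Its log2 fold of 1.32 (SE 0.96, adjusted p = 0.867) was 3.59 without low IMF replicate 1. CXCL11, the remaining ligand of the cluster, had 16, 18 and 4 reads in the high IMF libraries, against 9, 1 and 3 reads in the low IMF libraries and was not tested. CXCR3 itself measured 1.59, 0.619 and 0.174 CPM in high and 0.584, 0.533 and 0.267 CPM in low IMF replicates 1 to 3, a log2 fold of 0.79 (SE 0.78, adjusted p = 0.914) that was -0.20 without high IMF replicate 1. CCL5, a chemokine released by T cells, measured 2.03, 4.88 and 7.97 CPM in the high IMF libraries, against 3.67, 0.485 and 0.754 CPM in the low IMF libraries, with the groups overlapping through low IMF replicate 1 (log2 fold 1.59, SE 0.82, adjusted p = 0.763; 2.97 with low IMF replicate 1 left out).

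**Figure D3:**
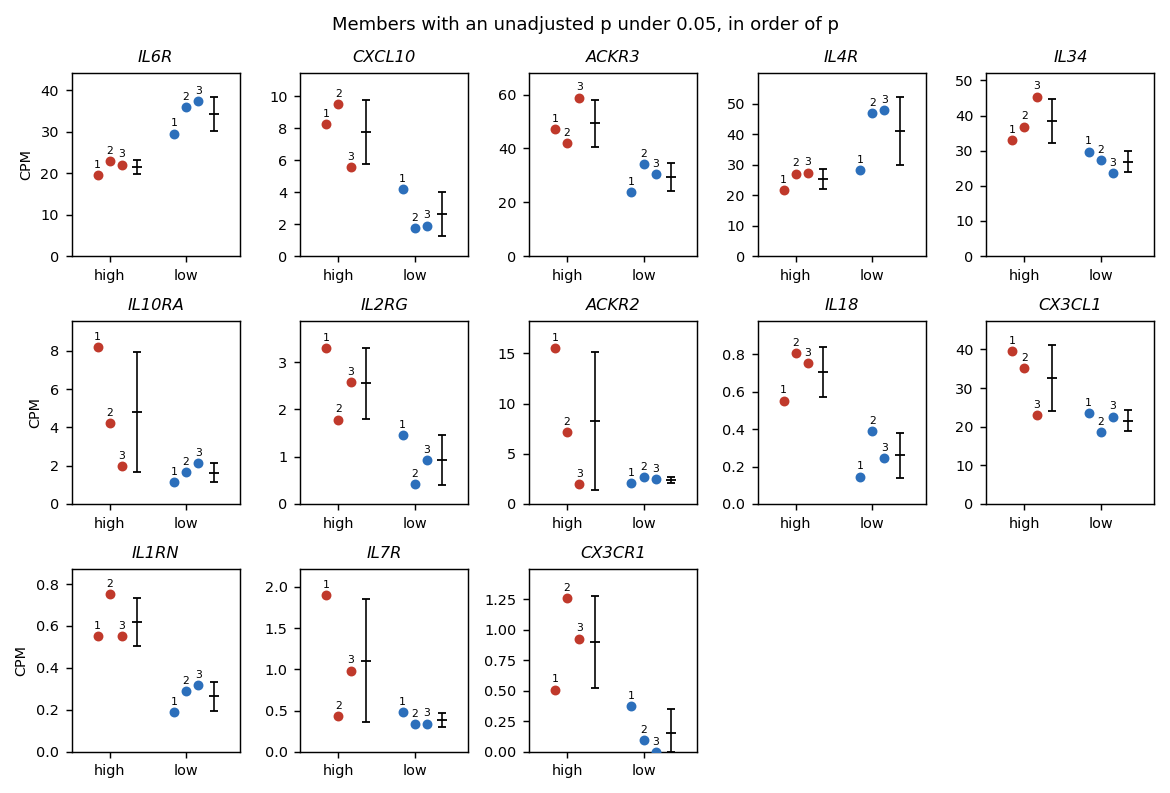
CPM of the 13 members with an unadjusted p under 0.05 in edgeR, 1 panel per gene in order of p, with high IMF libraries left of low IMF libraries; digits are replicate numbers and bars are mean ± SD (n = 3, cut at 0). IL6R, CXCL10, ACKR3, IL4R and IL34 show separate groups, whereas ACKR2 and IL10RA rest on high IMF replicates 1 and 2.

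In the CXCL12 axis, the groups were separate for ACKR3 and overlapped for CXCL12 and CXCR4. CXCL12 measured 194, 135 and 71.7 CPM in high and 102, 135 and 138 CPM in low IMF replicates 1 to 3, with the high IMF libraries on both sides of the low ones (log2 fold 0.09, SE 0.35, adjusted p = 0.976). CXCR4, its signalling receptor on leukocytes and progenitors, measured 12.2, 7.67 and 6.66 CPM in high and 4.25, 10.3 and 10.3 CPM in low IMF replicates 1 to 3 and also overlapped (log2 fold 0.10, SE 0.40). ACKR3, which takes up CXCL12 and CXCL11, measured 47.3, 41.9 and 58.9 CPM in the high IMF libraries, against 23.7, 34.2 and 30.4 CPM in the low IMF libraries. All high IMF libraries were above all low IMF libraries, a fold of 1.68 (log2 0.75, SE 0.20; edgeR unadjusted p = 0.00739, adjusted p = 0.523). Its log2 fold ranged from 0.60 to 0.86 over the fits that left out each library, with an unadjusted p of at most 0.0247; in DESeq2 it did not pass (adjusted p = 0.144).

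The log2 fold was positive for all 4 atypical receptors (median 1.03), where 51.2% of all genes tested were positive, and edgeR called 0 of the 4. ACKR2, which degrades inflammatory CC chemokines on lymphatic endothelium, measured 15.6, 7.19 and 1.97 CPM in the high IMF libraries, against 2.04, 2.69 and 2.43 CPM in the low IMF libraries. High IMF replicates 1 and 2 were above every low IMF library, and high IMF replicate 3 was below all of them. Its log2 fold of 1.79 (SE 0.65, unadjusted p = 0.028, adjusted p = 0.625) was 0.94 without high IMF replicate 1. ACKR1, the Duffy receptor of venules and red cells, measured 4.75, 15.9 and 5.85 CPM in high and 7.67, 5.65 and 6.52 CPM in low IMF replicates 1 to 3. ACKR1 was high in high IMF replicate 2 alone, and the log2 fold of 0.42 (adjusted p = 0.919) was -0.34 without it. ACKR4, a scavenger of CCL19, CCL21 and CCL25, had 126, 99 and 24 reads in the high IMF libraries, against 20, 43 and 29 reads in the low IMF libraries, with overlap.

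Fractalkine (CX3CL1), a membrane-anchored chemokine of endothelium, and its receptor CX3CR1 on monocytes and cytotoxic lymphocytes were both higher on average. CX3CL1 measured 39.6, 35.1 and 23 CPM in the high IMF libraries, against 23.6, 18.6 and 22.6 CPM in the low IMF libraries. High IMF replicate 3 lay just below low IMF replicate 1, so the groups overlapped. The log2 fold was 0.59 (SE 0.23, unadjusted p = 0.0355, adjusted p = 0.64). CX3CR1 had 23, 67 and 32 reads in the high IMF libraries, against 18, 4 and 0 reads in the low IMF libraries; the groups did not overlap, but low IMF replicate 3 had no read and the log2 fold of 2.46 (SE 1.03, unadjusted p = 0.0472, adjusted p = 0.679) rests on low counts. It was 4.12 when low IMF replicate 1 was dropped, and 1 of the 6 fits that left out a library had an unadjusted p under 0.05.

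The lymph node chemokines and homeostatic chemokines did not separate. CCL21 measured 18.7, 27.8 and 4.35 CPM in high and 20.2, 13 and 6.18 CPM in low IMF replicates 1 to 3, and its partner CCL19 0.309, 0.075 and 0.0579 CPM in high and 1, 0.412 and 0.17 CPM in low IMF replicates 1 to 3; CCR7, their receptor on naive T cells and dendritic cells, measured 0.552, 0.319 and 0.232 CPM in high and 0.334, 0.097 and 0.778 CPM in low IMF replicates 1 to 3. Their log2 folds were 0.37, -1.81 and -0.12 with SEs of 0.66, 0.90 and 0.78, and the adjusted p was 0.953, 0.752 and 0.988. Leaving out each library gave log2 folds of -0.20 to 0.82 for CCL21, -2.94 to -0.96 for CCL19 and -0.59 to 0.75 for CCR7, so the sign of CCL21 and CCR7 depended on the libraries used. CCL14 measured 15.6, 16.7 and 11.1 CPM in high and 25.1, 15.6 and 14.5 CPM in low IMF replicates 1 to 3 (log2 fold -0.35, SE 0.27), CXCL14 48.6, 38.9 and 15.3 CPM in high and 27.5, 27 and 25.4 CPM in low IMF replicates 1 to 3 (log2 fold 0.36, SE 0.38), and CCR10, a receptor for CCL27, 0.574, 0.563 and 0.608 CPM in high and 0.459, 1.14 and 0.754 CPM in low IMF replicates 1 to 3 (log2 fold -0.43, SE 0.48). For CXCL12 and CXCL14 the order of the high IMF libraries, with replicate 1 highest and replicate 3 lowest, was that of the summed fibroblast and progenitor markers (1162, 960 and 205 CPM). In low IMF muscle that sum was 256, 560 and 612 CPM in replicates 1 to 3, an order CXCL12 shared and CXCL14 did not. The high IMF order was not particular to fibroblast markers. The T cell, B and plasma cell, natural killer, macrophage, mast cell, dendritic cell, endothelial and platelet sums had it too. In both groups CXCL14 had the order of the B and plasma cell, endothelial and platelet sums. The part of these cells was not tested.

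Several CC chemokines and receptors were seen mainly in 1 library. They were singled out after their values were seen, and no fold is given for them. CCL17 and CCL22, both ligands of CCR4 on type 2 helper and regulatory T cells, had 91 and 131 reads in high IMF replicate 1, and 0 to 20 reads in each of the other 5 libraries. CCR4 itself had 83 reads in high IMF replicate 1 and 4 to 10 reads in the others. CCL1 had 72, 2 and 10 reads in the high IMF libraries, against 16, 0 and 0 reads in the low IMF libraries, and its receptor CCR8 had 104, 12 and 4 reads in the high IMF libraries, against 16, 0 and 6 reads in the low IMF libraries. Thus both chemokine and receptor of each of these axes had their highest value in the same library. The eosinophil chemokine CCL24 measured 7.69, 0.394 and 0 CPM in high and 1.94, 0.921 and 1.02 CPM in low IMF replicates 1 to 3. IL17B, a ligand of IL17RB, had 218, 14 and 0 reads in the high IMF libraries, against 1, 2 and 2 reads in the low IMF libraries; the edgeR filter left it out, whereas the DESeq2 Wald test called it (adjusted p = 0.0371), as did the authors' deposited table (adjusted p = 0.0373, marked as up). Without high IMF replicate 1 the unadjusted p of IL17B in DESeq2 was 0.395, with no adjusted p. Its adjusted p was 0.0519 when high IMF replicate 2 was dropped, 0.00031 when high IMF replicate 3 was, and 0.475, 0.725 and 0.692 when low IMF replicate 1, 2 or 3 was dropped. Of the 63 members tested, 7 had their highest CPM in high IMF replicate 1 at 2-fold or more above the next library (11.1%; 1.68% of all genes tested): CCL1, CCL24, ACKR2, CCR8, CXCR3, CXCR6 and IL2RB. The same library had the highest summed T cell level (37.1 CPM) and macrophage level (281 CPM). It also had the highest B and plasma cell (18.9 CPM), dendritic cell (37.4 CPM) and fibroblast and progenitor sums (1162 CPM). Its natural killer sum was highest as well (2.08 CPM, over only 2 of 5 markers, the others not being listed). So was its mast cell sum, by little (10.3 CPM, against 9.82 CPM in low IMF replicate 2, with TPSAB1 not listed). Its erythroid sum was 14.3 CPM, against 0.462 to 2.38 CPM in the other libraries, with HBB and HBA not listed. The neutrophil, adipocyte, endothelial, smooth muscle and pericyte, skeletal muscle and platelet sums were highest elsewhere. The part of these cells was not tested.

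**Figure D4:**
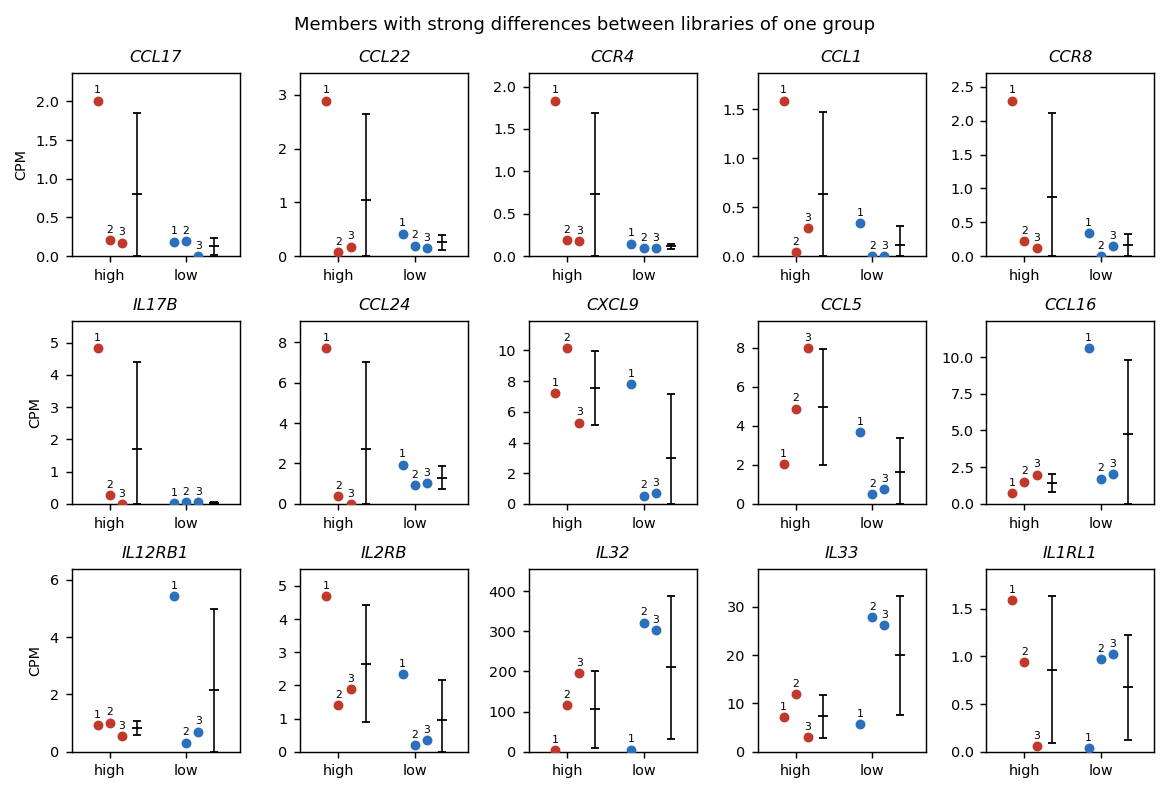
CPM of 15 members chosen after their values were seen for strong differences between libraries of 1 group, with high IMF libraries left of low IMF libraries; digits are replicate numbers and bars are mean ± SD (n = 3, cut at 0). CCL17, CCL22, CCR4, CCL1, CCR8, IL17B and CCL24 peak in high IMF replicate 1, CCL16 and IL12RB1 in low IMF replicate 1, and IL32 is near 0 in replicate 1 of both groups.

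Low IMF replicate 1 differed from the other low IMF libraries in another set of members. CCL16 measured 0.751, 1.52 and 2 CPM in high and 10.6, 1.72 and 2.02 CPM in low IMF replicates 1 to 3, and IL12RB1, the chain shared by the IL-12 and IL-23 receptors, 0.928, 1.01 and 0.55 CPM in high and 5.42, 0.315 and 0.705 CPM in low IMF replicates 1 to 3. These 2 and CCL19 had their highest CPM in low IMF replicate 1 at 2-fold or more above the next library (3 of 63, or 4.76%; 1.44% of all genes tested). CISH, a feedback inhibitor induced by STAT5 that is no member, measured 150.2 CPM in this library and 2.29 to 4.40 CPM in the other 5. Low IMF replicate 1 had the highest T cell sum of its group, 14.6 CPM, against 5.02 and 5.18 CPM in low IMF replicates 2 and 3.

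IL32 varied widely within both groups. It measured 3.73, 117 and 196 CPM in the high IMF libraries, against 5.54, 322 and 303 CPM in the low IMF libraries. The library labelled replicate 1 was low in both groups, 86.1-fold below the highest library at the extreme, while the other 4 libraries were all above 100 CPM. What sets these libraries apart was not tested, so the IL32 level and its share of reads describe these libraries only. Within each group the spread was thus larger than the difference between them (log2 fold -0.99, SE 1.46, adjusted p = 0.94). In low IMF replicate 2, IL32 made up 34.8% of all member reads. IL32 has no known counterpart in mice, and its role is known mainly from human cells.

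Among the IL-1 family ligands, 4 of 5 tested had a positive log2 fold (median 1.22), where 51.2% of all genes tested did. For 3 of them, at low counts, every high IMF library lay above every low one, as for 6.86% of all genes tested. IL18, which the inflammasome activates, had 25, 43 and 26 reads in the high IMF libraries, against 7, 16 and 10 reads in the low IMF libraries. Every high IMF library was above every low one in CPM, a fold of 2.71 (log2 1.44, SE 0.53, unadjusted p = 0.0297, adjusted p = 0.633). IL1RN, the antagonist that blocks IL1R1, had 25, 40 and 19 reads in the high IMF libraries, against 9, 12 and 13 reads in the low IMF libraries, again without overlap (fold 2.33, SE 0.48 on the log2 scale, unadjusted p = 0.0373, adjusted p = 0.642). IL1B, the agonist, had 20, 21 and 14 reads in the high IMF libraries, against 5, 12 and 8 reads in the low IMF libraries, without overlap in CPM and with an unadjusted p of 0.0966 (log2 fold 1.07, SE 0.56, adjusted p = 0.764). Agonist and antagonist thus lay on the same side.

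IL33, a nuclear alarmin of stromal and endothelial cells, lay on the opposite side. It measured 7.16, 11.9 and 3.04 CPM in the high IMF libraries, against 5.67, 27.9 and 26.2 CPM in the low IMF libraries. Low IMF replicates 2 and 3 were above all high IMF libraries, but low IMF replicate 1 fell inside the high IMF range. Its log2 fold was -1.43 (SE 0.67, unadjusted p = 0.069, adjusted p = 0.734). The IL33 receptor IL1RL1 measured 1.59, 0.938 and 0.0579 CPM in high and 0.0417, 0.97 and 1.02 CPM in low IMF replicates 1 to 3, with high IMF replicate 3 and low IMF replicate 1 near 0 (log2 fold 0.36, SE 1.19). IL1R1, the signalling receptor of IL-1, measured 7.58, 11.9 and 2.17 CPM in high and 9.23, 7.76 and 8.49 CPM in low IMF replicates 1 to 3, and IL1RAP, its accessory chain, 0.795, 0.976 and 0.116 CPM in high and 0.667, 1.14 and 0.924 CPM in low IMF replicates 1 to 3. Their log2 folds were -0.23 (SE 0.53) and -0.51 (SE 0.71), with adjusted p of 0.965 and 0.937. For IL1R1 and IL1RAP, high IMF replicate 3 had the lowest value. It was also lowest for the fibroblast and progenitor sum (205 CPM) and the endothelial sum (365 CPM, against 614 to 813 CPM elsewhere). The macrophage, mast cell, dendritic cell, smooth muscle and pericyte, and platelet sums were lowest there too. The part of these cell types was not tested.

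Receptor chains of the common gamma chain family, which serves IL-2, IL-4, IL-7, IL-15 and IL-21, did not all lie on 1 side, and edgeR called 0 of the 8 members tested. The common gamma chain IL2RG measured 3.29, 1.78 and 2.58 CPM in the high IMF libraries, against 1.46, 0.412 and 0.924 CPM in the low IMF libraries. The groups did not overlap, with high IMF replicate 2 closest to low IMF replicate 1, and the fold was 2.72 (log2 1.45, SE 0.52, unadjusted p = 0.0256, adjusted p = 0.618). IL7R, which keeps naive and memory T cells alive, measured 1.9, 0.431 and 0.985 CPM in high and 0.479, 0.339 and 0.34 CPM in low IMF replicates 1 to 3, with an overlap between high IMF replicate 2 and low IMF replicate 1 (log2 fold 1.5, SE 0.61, unadjusted p = 0.0431, adjusted p = 0.664; 0.83 with high IMF replicate 1 left out). IL2RB, shared by IL-2 and IL-15, measured 4.68, 1.41 and 1.88 CPM in high and 2.33, 0.194 and 0.34 CPM in low IMF replicates 1 to 3 (log2 fold 1.46, SE 0.94, adjusted p = 0.846), and its log2 fold was 0.75 without high IMF replicate 1 and 3.29 without low IMF replicate 1.

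IL4R, the chain that IL-4 and IL-13 share, measured 21.6, 27.1 and 27.3 CPM in the high IMF libraries, against 28.2, 46.8 and 47.8 CPM in the low IMF libraries. In CPM all low IMF libraries were above all high IMF libraries, though low IMF replicate 1 exceeded the highest high IMF library by little. In FPKM, which carries no TMM factor, the groups overlapped. Low IMF replicate 1 had 6.04 FPKM and high IMF replicate 2 had 6.29 FPKM. The level was 1.62-fold higher in low IMF muscle (log2 fold -0.69, SE 0.24, unadjusted p = 0.0209, adjusted p = 0.593). Its partner in the IL-13 receptor, IL13RA1, measured 34.9, 40.2 and 30.4 CPM in high and 47.1, 32.8 and 33.5 CPM in low IMF replicates 1 to 3 (log2 fold -0.10, SE 0.20, adjusted p = 0.956). IL15 is a cytokine that muscle fibres make, and IL15RA presents it. IL15 averaged 21.5 ± 2.36 CPM in high and 23.4 ± 3.96 CPM in low IMF muscle (SD, n = 3 each; log2 fold -0.12, SE 0.18), and IL15RA 4.56 ± 0.353 CPM in high and 4.44 ± 1.38 CPM in low IMF muscle (log2 fold 0.04, SE 0.28).

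IL6R, the ligand-binding chain of the IL-6 receptor, had the smallest p of all members in edgeR. It measured 19.6, 23 and 22.1 CPM in the high IMF libraries, against 29.6, 36.1 and 37.4 CPM in the low IMF libraries. The groups did not overlap, and the level was 1.59-fold higher in low IMF muscle (log2 fold -0.67, SE 0.16; edgeR unadjusted p = 0.00367, adjusted p = 0.51; DESeq2 adjusted p = 0.0855). Leaving out each library gave log2 folds of -0.78 to -0.61, with an unadjusted p of at most 0.0216. IL6ST (gp130), the signalling chain of the family, measured 78.4, 81 and 51.9 CPM in high and 83.2, 57.7 and 60.4 CPM in low IMF replicates 1 to 3, with overlap and a log2 fold of 0.07 (SE 0.23, adjusted p = 0.974). Whether the change differed between these chains was not tested.

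IL10RA, the IL-10 receptor chain of leukocytes, measured 8.17, 4.22 and 1.97 CPM in the high IMF libraries, against 1.13, 1.65 and 2.14 CPM in the low IMF libraries. The value of high IMF replicate 3 fell among those of the low IMF libraries, and the log2 fold of 1.55 (SE 0.54, unadjusted p = 0.0227, adjusted p = 0.6) was 0.91 without high IMF replicate 1, the library with the highest macrophage sum. IL10RB, the broadly expressed partner chain, measured 17.4, 14.5 and 11.1 CPM in high and 14.1, 12.5 and 12.5 CPM in low IMF replicates 1 to 3 (log2 fold 0.13, SE 0.21). IL27RA, the IL-27 receptor chain that pairs with gp130, measured 19.5, 13.7 and 12.7 CPM in high and 13.9, 9.07 and 11.8 CPM in low IMF replicates 1 to 3 (log2 fold 0.40, SE 0.25, adjusted p = 0.828).

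All 5 tested members of the IL-17 family had a positive log2 fold, with a median of 0.25, where 51.2% of all genes tested were positive. In edgeR 0 of these 5 were called. IL17RC measured 14.6, 17.1 and 16.7 CPM in high and 14.3, 11.1 and 14 CPM in low IMF replicates 1 to 3. The groups did not overlap in CPM, but the log2 fold was 0.30 (SE 0.18, edgeR unadjusted p = 0.136, adjusted p = 0.825). In FPKM they overlapped, at 4.82 in high IMF replicate 3 and 4.84 in low IMF replicate 1. IL17RA, the partner of IL17RC, measured 6.65, 5.68 and 3.39 CPM in high and 4.44, 4.78 and 3.99 CPM in low IMF replicates 1 to 3 (log2 fold 0.25, SE 0.30, edgeR adjusted p = 0.929).

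IL34, which with CSF1 maintains tissue macrophages through CSF1R, measured 33.1, 36.9 and 45.4 CPM in the high IMF libraries, against 29.7, 27.3 and 23.6 CPM in the low IMF libraries. The groups did not overlap, and the fold was 1.43 (log2 0.52, SE 0.18, unadjusted p = 0.0219, adjusted p = 0.599). In CPM its highest library was high IMF replicate 3, the one with the lowest macrophage sum (49.1 CPM); in FPKM, which carries no TMM factor, it was high IMF replicate 2, and the groups still did not overlap. IL5, the eosinophil cytokine, was singled out after its values were seen because it was even across libraries, at 5.74, 5.23 and 5.13 CPM in high and 6.86, 5.72 and 4.62 CPM in low IMF replicates 1 to 3. IL5 lies next to RAD50 in the donkey genome, and no source used here says whether the counting used strand, so reads of overlapping transcripts cannot be told apart.

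Genes of the same pathways outside the name rule were given by a list of 65 kinases, STAT factors, inhibitors, adaptors and related ligands and receptors. Of these 60 were listed and 57 tested, with a median log2 fold of 0.12. None passed in edgeR at an adjusted p under 0.05, while 8 were higher (14%; 4.53% of all genes tested) and 2 lower (3.51%; 2.74% of all genes tested) at an unadjusted p under 0.05. Those higher were SOCS1, SOCS7, PTPN6, ARRB1, DOCK2, RAC2, XCR1 and NLRP3, and those lower were CISH and CNTFR. CISH was lower through low IMF replicate 1 alone, since low IMF replicates 2 and 3 (2.40 and 2.55 CPM) lay within the high IMF range. XCR1 had 143 reads in high IMF replicate 1 and 8 to 18 reads in each other library. Of the 60 listed, the DESeq2 Wald test called 2, both higher, where it called 0.68% of all genes higher and 0.477% lower. These were the phosphatase PTPN6 of leukocytes (adjusted p = 0.0351) and the leukocyte GTPase RAC2 (adjusted p = 0.044). PTPN6 measured 7.64, 4.95 and 3.77 CPM in the high IMF libraries, against 2.13, 2.09 and 2.41 CPM in the low IMF libraries, without overlap. SOCS1, a feedback inhibitor of JAK kinases, measured 1.19, 0.9 and 0.492 CPM in high and 0.354, 0.364 and 0.267 CPM in low IMF replicates 1 to 3 (unadjusted p = 0.0269, adjusted p = 0.623 in edgeR).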

How the data were processed

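Read counts per gene in 6 libraries, 3 of high and 3 of low intramuscular fat, were used as the authors deposited them. The submitters' processing notes name HISAT2 and the mouse build mm9, while the table describes donkey and horse proteins; the genome behind the counts, the counter and its handling of strand or of near-identical genes are stated in no source used here, and no coordinates are printed. The table of the whole series and the files of single samples held the same counts (0 cells differed). The deposited FPKM values, per gene length and total count, were used only to compare levels between genes and entered no test. The authors' deposited fold change (a ratio of high over low), log2 fold and p-values with their adjusted forms appear only where their table is named. Neighbouring genes were read from the RefSeq gene table of assembly EquAss-T2T_v2, in which 93 of the 99 member names were found.

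Counts were tested over the whole table with edgeR 4.0.16 in R 4.3.3 (quasi-likelihood F-test, TMM normalization, filterByExpr with default settings), adjusted by Benjamini-Hochberg over 15933 genes with a threshold of 0.05, two-sided. CPM is relative to TMM-adjusted library sizes. The SE of a log2 fold is approximate, the fold divided by the square root of its F. DESeq2 1.42.0, limma-voom (limma 3.58.1), other scalings and filters, a replicate block, sums of low IMF replicates 2 and 3 and leaving out each library were the alternatives (DESeq2 without each library was added after the data were seen). Named members were those with an unadjusted p under 0.05, up to 3 of highest FPKM in each family, those called by DESeq2 or in the authors' deposited table, and a fixed set of ligands and receptors. Of that set CCL2, CCR2 and IL16 had no row of that name, and 1 item is not reported here. Members, families and lists were chosen with earlier results of these data known, so lists were described and not tested. A count of 0 allows up to 3 reads at 95% confidence where reads are independent. Most low counts were even, so this limit may be too low.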

Additional observations from a re-analysis of the deposited data

Results flagged for a closer look

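A total of 19 rows outside the name rule carried a LOC number and a protein description naming a chemokine, an interleukin or a receptor of one; they entered none of the comparisons above, and 13 of them were tested. For 1 of these, LOC106838440, described as C-X-C chemokine receptor type 2-like (a neutrophil receptor), all 3 high IMF libraries lay above all 3 low IMF libraries in CPM. It had 12, 24 and 26 reads in the high IMF libraries, against 5, 6 and 2 reads in the low IMF libraries. The log2 fold was 2.26 in edgeR (unadjusted p = 0.0123, adjusted p = 0.528). With so few low IMF reads, the row passed the low-count filter through the high IMF libraries. Of all genes tested, 6.86% had every high IMF library above every low one, so 1 of 13 rows is near that share. Of the 19 rows, LOC106838436 is also described as C-X-C chemokine receptor type 2-like, with 0 to 5 reads in each library. Reads could be split between these rows.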

How the results depend on the processing

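In edgeR and limma-voom no member was called under any alternative; DESeq2 called 2 members and 194 genes in all, and leaving out each library in edgeR gave 0 members and 0 to 3 genes, the 3 without high IMF replicate 1. The number of members higher at an unadjusted p under 0.05 was 7 with the stricter filter, 3 with low IMF replicates 2 and 3 summed and 3 to 13 without each library; the number lower was 4 with DESeq2, 4 without a low-count filter, 4 with the replicate block and 2 to 3 without each library. The median log2 fold of members was 0.21 with the stricter filter, 0.20 with the replicate block, 0.55 with library size only (0.15 over all genes, where TMM gave 0.01), and 0.02 to 0.60 without each library. Of 40 named members tested, 27 kept their direction throughout. The log2 fold changed sign with library size only for CCR7 (0.06), IL13RA1 (0.04) and IL15 (0.02), with the replicate block for CCR7 (0.20) and CXCL12 (-0.01), with limma-voom for CCR7 (0.23) and CXCL12 (-0.03), and with low IMF replicates 2 and 3 summed for IL15RA (-0.09) and IL6ST (-0.02). Leaving out each library changed the sign for ACKR1 (-0.34 to 0.71), CCL21 (-0.20 to 0.82), CCR7 (-0.59 to 0.75), CXCL12 (-0.28 to 0.39), CXCR3 (-0.20 to 1.24), CXCR4 (-0.23 to 0.28), IL10RB (-0.04 to 0.28), IL13RA1 (-0.23 to 0.07), IL15 (-0.23 to 0.02), IL15RA (-0.10 to 0.31), IL1R1 (-0.81 to 0.19), IL1RL1 (-0.40 to 0.90) and IL6ST (-0.06 to 0.24). The cause was not tested. By FPKM in place of CPM, 53 of the 63 members tested had the same highest library, and 29 were highest in high IMF replicate 1. The replicate numbers were not shown to pair the libraries: deviations of same-numbered libraries correlated at 0.196, 0.149 and 0.0197, and high IMF replicate 2 correlated best with low IMF replicate 3 (0.206). Members with few reads limit all folds at this depth.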

Other observations

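Other rows outside the name rule held chemokine receptors of monocytes and chemokines of the CCL2 cluster. LOC106838391, which the RefSeq table names CCR1, measured 5.1, 2.1 and 0.348 CPM in high and 0.375, 0.509 and 0.827 CPM in low IMF replicates 1 to 3 (edgeR log2 fold 2.14, unadjusted p = 0.0421, adjusted p = 0.66), with high IMF replicate 3 below every low IMF library. LOC106844632, described as C-C motif chemokine 13-like, measured 10.6, 1.14 and 0.521 CPM in high and 0.73, 0.461 and 0.34 CPM in low IMF replicates 1 to 3, with high IMF replicate 1 far above the rest (edgeR unadjusted p = 0.0291, adjusted p = 0.633). LOC106844630, described as C-C motif chemokine 2, the main monocyte chemokine, measured 10.7, 5.48 and 6.81 CPM in high and 2.61, 8.78 and 9.82 CPM in low IMF replicates 1 to 3 and overlapped (log2 fold 0.12, adjusted p = 0.979). LOC106822521, which the RefSeq table names IL16, measured 9.83, 6.9 and 5.04 CPM in high and 4.77, 6.79 and 7.12 CPM in low IMF replicates 1 to 3, also with overlap. None of the 13 tested rows passed in edgeR or in DESeq2, and 3 had an unadjusted p under 0.05, all with a positive log2 fold (4.53% of all genes tested were higher and 2.74% lower at that threshold). CCL2-cluster genes and CCR genes are close copies, so their counts are uncertain.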
